A study of Mus musculus with 14 samples.

Results

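The 40 genes described here encode lysosomal enzymes, lysosomal membrane and lumen proteins, subunits of the lysosomal proton pump, and the transcription factors Tfeb, Tfe3 and Mitf. They were chosen by gene symbol as a pathway list, with no threshold on their values but with earlier results of these data known, and all 40 were found among the 35275 genes of the table and passed the filter on low values. By role they comprise 3 transcription factors, 9 proteases, 9 glycosidases or sulfatases, 6 proteins of lipid handling, 6 membrane or lumen proteins and 7 pump subunits. The RNA libraries came from brown fat of C57BL/6 mice aged 8 weeks. All animals carried floxed Lrpprc alleles (LrpprcFF). Lrpprc is the nuclear gene of an RNA-binding protein that stabilises mitochondrial transcripts. Controls were LrpprcFF mice without Cre, and knockouts (LrpprcFF Ucp1-Cre) carried a Cre transgene driven by the promoter of Ucp1, the uncoupling protein of brown adipocytes, so that other cell types of the tissue are expected to keep the gene. At room temperature (22 °C) there were 4 controls and 4 knockouts, and at thermoneutrality (30 °C) 3 controls and 3 knockouts, each library from a separately identified animal. Brown adipocytes are the labelled cell type, but RNA was extracted from homogenized tissue. In such bulk samples, fewer cells of a type and less RNA per cell cannot be told apart.

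Lysosomes are acidic compartments that degrade proteins, glycans and lipids delivered by endocytosis and autophagy. A vacuolar proton pump acidifies them, and soluble hydrolases each cut a particular bond. TFEB, TFE3 and MITF are related basic helix-loop-helix factors. When nutrient signalling through mTORC1 at the lysosome is low they move to the nucleus and bind a palindromic element found before many lysosomal genes, so their activity is regulated largely at the protein level, which RNA levels do not show. In adipose tissue, macrophages that take up lipid are also rich in lysosomal enzymes.

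The element these factors are known to bind has TCACGTGA at its core and holds the shorter E-box CACGTG. RefSeq promoter windows on GRCm38.p6, from 250 bases before to 50 after each start site, were available for 33 of the 40 members (43 windows). TCACGTGA was present in 7 of these windows (16.3%), against 0.974% of all 32851 windows. CACGTG, which includes every TCACGTGA match, was in 13 (30.2%), against 7.15%. The related TCATGTGA, searched on both strands, was in 6 (14%), against 0.986%. A match describes these letters and is not evidence of binding. Because this element is already known before many lysosomal genes, a higher share than over all windows was foreseeable from the choice of genes. The stretches below, read 5′ to 3′ on the strand of the gene, show where the matches lie. Capitals mark TCACGTGA, in Gla also TCATGTGA, and in Lamp1 CACGTG. Lamp1, which lacks TCACGTGA, is shown for its 4 CACGTG matches.
Gla, chrX:134601184-134601242, minus strand: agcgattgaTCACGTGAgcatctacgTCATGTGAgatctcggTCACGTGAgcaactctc
Cln3, chr7:126583325-126583384, minus strand: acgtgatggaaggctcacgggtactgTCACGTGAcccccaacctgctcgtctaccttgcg
Mcoln1, chr8:3500447-3500506, plus strand: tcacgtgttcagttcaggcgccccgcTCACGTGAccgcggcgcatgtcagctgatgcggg
Ctsa, chr2:164833734-164833772, plus strand: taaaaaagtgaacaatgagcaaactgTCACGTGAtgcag
Ctsd, chr7:142387893-142387952, minus strand: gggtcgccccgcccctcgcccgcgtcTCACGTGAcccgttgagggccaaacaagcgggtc
Atp6v1a, chr16:44139358-44139417, minus strand: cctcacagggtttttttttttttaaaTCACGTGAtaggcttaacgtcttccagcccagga
Lamp1, chr8:13159096-13159155, plus strand: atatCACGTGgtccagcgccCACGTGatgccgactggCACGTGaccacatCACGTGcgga
In Ctsa the match shown begins 13 bases before the start site, and a second lies just after that site. In Mcoln1 it begins 46 bases before the start. Ctsd has it at 99 bases, Cln3 at 122 and Atp6v1a at 132. Gla carries 2 matches before its start site, at 228 and 195 bases, with TCATGTGA between them. In Atp6v0d1 the match runs across the start site and is not shown. Of these 7 genes, Gla (0.88), Ctsa (0.73) and Mcoln1 (0.40) rose in the knockout comparison at 30 °C given below, as log2 fold changes, and Atp6v1a (0.51), Ctsd (0.38), Atp6v0d1 (0.34) and Cln3 (-0.02) did not pass the test. Differences between these genes were not tested.

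The deposited FPKM values (fragments per unit of transcript length and of sequencing depth) were scaled between libraries over nuclear genes, and every level given here is a scaled FPKM. Fold changes are differences of log2(scaled FPKM + 1), given with a standard error (SE), and understate the change of weakly expressed genes. A gene was called at an adjusted p under 0.05 over all 13079 genes tested with limma. Depth was 15.9 to 21.3 M fragments per library, which is also the number of fragments per kilobase at 1 FPKM (15.9 to 21.3). Lrpprc was at 25.3 to 57.3 in controls and 8.85 to 11.2 in knockouts at 22 °C, and at 30.3 to 32.8 and 4.97 to 8.57 at 30 °C. Its log2 fold change was -1.86 (SE 0.21, adjusted p = 0.000374) at 22 °C and -2.06 (SE 0.25, adjusted p = 0.000377) at 30 °C. Mitochondrially encoded genes took 21.8 to 28.5% of the summed FPKM in controls and 2.04 to 5.34% in knockouts, the reason for scaling over nuclear genes. Summed brown adipocyte markers ran from 17378 to 23127 in controls and 13744 to 18011 in knockouts at 22 °C. At 30 °C the sums were 12597 to 15596 in controls and 6863 to 8906 in knockouts. Fabp4 was the largest part (3764 to 13712 over the libraries). Ucp1 was at 269 to 3359, while Elovl3 went down to 0.0746 and Dio2 to 0.94 at 30 °C. Skeletal muscle markers varied within every group, from 26.3 to 15664 in sum over the libraries. Xist was at 9.71 or more in all 6 animals kept at 30 °C and at 0.0139 or less in all 8 kept at 22 °C, and Ddx3y, a Y-linked gene, showed the opposite split. By these genes the animals at 30 °C look female and those at 22 °C male, which the labels do not mention. Temperature and sex therefore cannot be told apart in any comparison between temperatures. This holds for every member, X-linked or not, and for differences between the knockout effects. The X-linked members are 4 (Tfe3, Lamp2, Atp6ap1 and Gla).

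**Figure D1:**
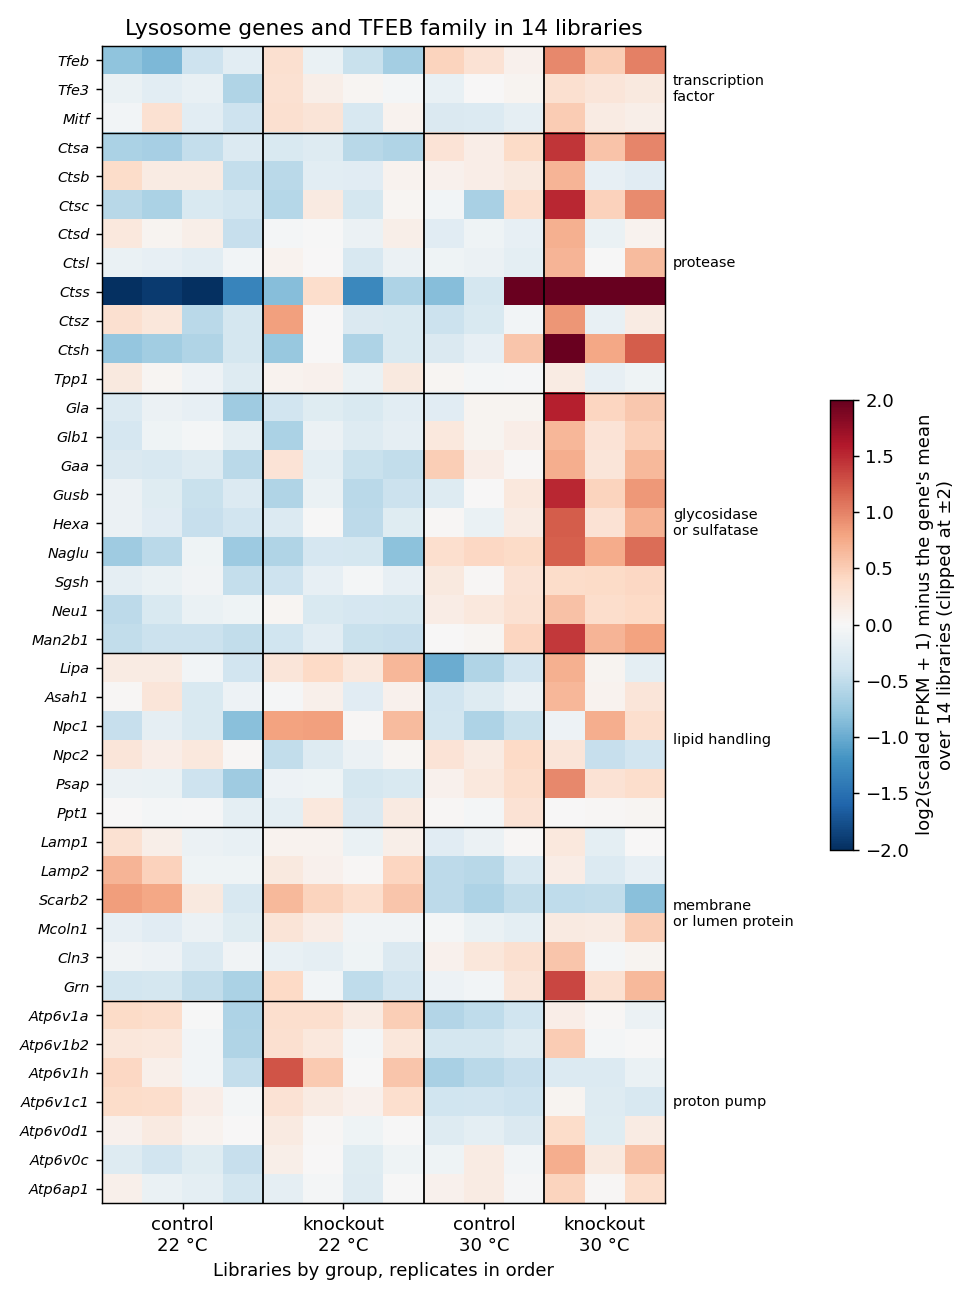
Levels of the 40 genes (rows, by role) in the 14 libraries (columns, by group). Colour gives log2(scaled FPKM + 1) minus the mean of the gene over all libraries, clipped at 2 in either direction. Most enzymes are highest in the 3 knockouts at 30 °C, above all in replicate 1, while Scarb2, Lamp2 and several pump subunits are higher at 22 °C.

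The members spanned a wide range of levels. Psap, the precursor of the saposins that help glycosidases reach their lipid substrates, was the most abundant member in all 4 groups, with means of 771 ± 143 (SD, n = 4) in controls and 841 ± 81.7 (SD, n = 4) in knockouts at 22 °C, and 1126 ± 104 and 1436 ± 392 (SD, n = 3 each) at 30 °C. Ctsd, the aspartic protease cathepsin D, followed with group means of 582 to 781. At the low end were Gla (group means 1.59 to 5.08), Mitf (1.92 to 3.19) and Sgsh (2.02 to 3.55). Replicate animals varied least in controls at 30 °C, where the median coefficient of variation over members was 8.87%, and most in knockouts at 30 °C (21.8%). Over all genes tested the medians in the same groups were 11.1% and 14.8%. Ctss was the most variable member in every group, from 42% in controls at 22 °C to 111% in controls at 30 °C.

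At 22 °C, Npc1 alone of the 40 members rose in knockouts (2.5%, against 0.91% of all genes tested called higher), and 0 were called lower (1.06% of all genes). The median log2 fold change over members was 0.08, against 0.00 over all genes, and 31 of 40 values were positive. Without control replicate 4 the median was 0.03 (24 of 40 positive), and without both controls whose identifiers begin with R (replicates 3 and 4) it turned to -0.04 (17 of 40 positive). Over all single omissions it ran from 0.03 to 0.14, and sample weights gave 0.02, with 22 of 40 positive. All 4 knockouts lay above all 4 controls for 6 members (15%, against 4.85% of all genes): Npc1, Lipa, Ctss, Mcoln1, Tfe3 and Atp6v0c. At an unadjusted p under 0.05 limma gave 7 members (17.5%, against 15.8% of all genes), so the share past that level was near the background.

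At 30 °C, 15 of the 40 members rose in knockouts (37.5%, against 8.82% of all genes called higher) and 0 fell (5.28% of all genes called lower). The median log2 fold change was 0.43, against 0.06 over all genes, and 34 of 40 values were positive. For 27 members (67.5%, against 22.2% of all genes) all 3 knockouts lay above all 3 controls. By role, 5 of 9 glycosidases or sulfatases rose (Man2b1, Gusb, Hexa, Gla and Naglu), as did 5 of 9 proteases (Ctsh, Ctss, Ctsa, Ctsc and Ctsl), 3 of 6 lipid-handling genes (Lipa, Asah1 and Npc1), 1 of 6 membrane or lumen proteins (Mcoln1), 1 of 7 pump subunits (Atp6v0c) and 0 of 3 transcription factors. The median log2 fold changes of these groups were 0.64, 0.57, 0.45, 0.24, 0.34 and 0.51.

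The count at 30 °C depended on single animals. Without knockout replicate 1 it was 4 (Gusb, Man2b1 and Npc1 higher, Npc2 lower), without knockout replicate 3 it was 6, and without knockout replicate 2 it was 16. Without control replicates 1, 2 or 3 it was 1, 3 and 9. Man2b1 stayed called higher in all 6 of these fits and Gusb in 5. A fit to the 6 animals at 30 °C alone called 2 members, Naglu and Atp6v1a. Knockout replicate 1 was the highest of its group for 33 of 40 members (82.5%, against 37.6% of all genes) and for 13 of the 15 called. Among controls at 30 °C, replicate 3 was the highest for 27 of 40 (67.5%, against 38.2%).

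**Figure D2:**
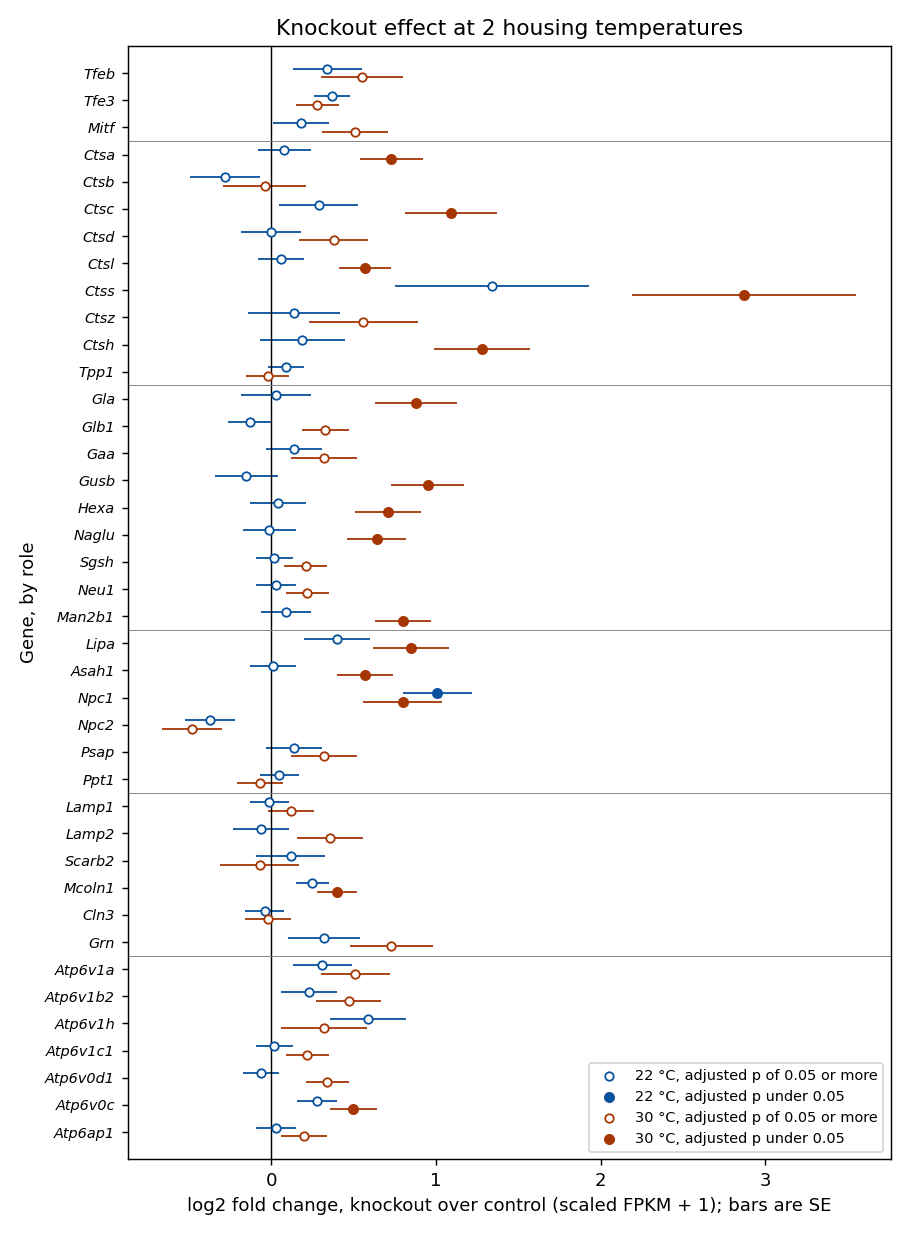
Log2 fold change of knockout over control for each gene at 22 °C (blue) and 30 °C (brown), with SE bars; filled points have an adjusted p under 0.05. Npc1 alone is filled at 22 °C and 15 genes are filled at 30 °C, with Ctss farthest to the right at 2.87.

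Among the transcription factors, none passed the test between genotypes at either temperature (1 of 3 at 22 °C and 2 of 3 at 30 °C had an unadjusted p under 0.05). Tfeb stood at 12.2, 11.4, 16.4 and 19.0 in controls and at 27.9, 20, 15.9 and 13.4 in knockouts at 22 °C. At 30 °C it was 30.3, 27.1 and 23.4 in controls and 43.8, 31.4 and 45.3 in knockouts. The genotypes overlapped at 22 °C, and at 30 °C all 3 knockouts lay above all 3 controls. The log2 fold change was 0.34 (SE 0.21, adjusted p = 0.473) at 22 °C and 0.55 (SE 0.25, adjusted p = 0.162) at 30 °C.

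Tfe3, the X-linked family member, was at 7.95, 7.44, 7.82 and 5.43 in controls and 11, 9.61, 9 and 8.50 in knockouts at 22 °C. At 30 °C it was at 7.81, 8.84 and 9.11 in controls and 11.2, 10.5 and 10.2 in knockouts. Knockouts lay above controls without overlap at both temperatures, yet the log2 fold changes of 0.37 (SE 0.11, adjusted p = 0.122) and 0.28 (SE 0.13, adjusted p = 0.181) did not pass the test. Mitf, best known as the melanocyte regulator, was the least abundant of the 3. Its levels at 22 °C were 2.33, 3.27, 1.98 and 1.59 in controls and 3.31, 3.14, 1.78 and 2.62 in knockouts, which overlap. At 30 °C they were 1.84, 1.87 and 2.05 in controls and 3.93, 2.88 and 2.74 in knockouts, with no overlap, and the log2 fold change was 0.51 (SE 0.20, adjusted p = 0.104), against 0.18 (SE 0.17, adjusted p = 0.667) at 22 °C. With the FPKM as deposited, Tfe3 was called higher at both temperatures (0.64 and 0.56) and Tfeb and Mitf at 30 °C (0.84 and 0.73). That setting moves the median of all genes to 0.24 at 22 °C and 0.31 at 30 °C. Scaling to equal nuclear totals called Tfe3 at both temperatures (0.50, adjusted p = 0.0361, and 0.42, adjusted p = 0.0412) and Mitf at 30 °C (0.62, adjusted p = 0.0434), with all-gene medians of 0.12 and 0.19. Sample weights called Tfeb at 30 °C (0.64, adjusted p = 0.0268), with an all-gene median of 0.06.

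**Figure D3:**
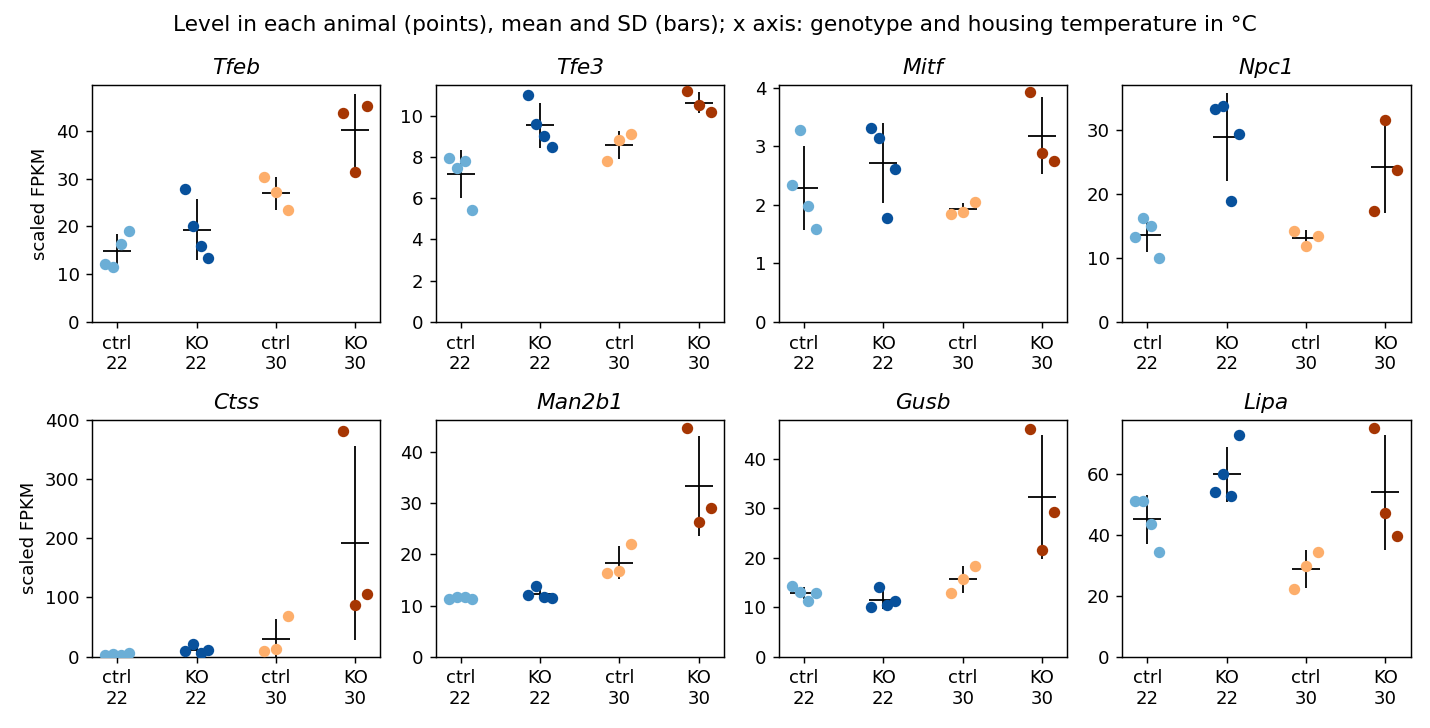
Scaled FPKM of 8 genes in each animal (points), with the group mean and SD (bars), in controls (ctrl) and knockouts (KO) at 22 and 30 °C. Npc1 is higher in knockouts at both temperatures; Ctss, Man2b1 and Gusb are highest in knockouts at 30 °C, where replicate 1 stands above the others.

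Of the proteases, cathepsin S (Ctss), which antigen-presenting cells use to process the invariant chain, had the largest difference. At 30 °C it was at 8.72, 12.8 and 68.1 in controls and at 381, 88.0 and 106 in knockouts, with a log2 fold change of 2.87 (SE 0.68, adjusted p = 0.0147) and a ratio of means of 6.42. Control replicate 3 and knockout replicate 1 stood far above the others of their groups, and all knockouts were above all controls. At 22 °C it was at 2.41, 3.65, 2.98 and 6.00 in controls and 8.75, 21.5, 6.15 and 10.4 in knockouts, without overlap, but the difference of 1.34 (SE 0.59, adjusted p = 0.292) did not pass. Cathepsin H (Ctsh), an aminopeptidase, was at 5.28, 5.85 and 10.3 in controls and 29.1, 12.1 and 16.7 in knockouts at 30 °C (1.28, SE 0.29, adjusted p = 0.0128). At 22 °C Ctsh overlapped between controls (3.46, 3.74, 4.07 and 5.03) and knockouts (3.52, 6.70, 3.99 and 5.22).

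Cathepsin C (Ctsc), a dipeptidyl peptidase that activates serine proteases of immune cells, was at 6.18, 3.76 and 8.39 in controls and 20.2, 9.28 and 13.3 in knockouts at 30 °C (1.09, SE 0.28, adjusted p = 0.0216). At 22 °C it was at 4.07, 3.78, 5.01 and 4.78 in controls and 4.03, 7.40, 4.80 and 6.66 in knockouts, which overlap. Ctsa, the carboxypeptidase that protects neuraminidase and beta-galactosidase, was at 38.2, 34.5 and 41.1 in controls and 85.9, 47.0 and 62.6 in knockouts at 30 °C (0.73, SE 0.19, adjusted p = 0.0204). Its values at 22 °C were lower in both genotypes and overlapped, at 19.9, 19.5, 22.4 and 25.9 in controls and 25.3, 26, 21.1 and 20.3 in knockouts. Ctsl, a cysteine endopeptidase, rose from 70.4, 69.2 and 65.2 in controls to 121, 74.0 and 117 in knockouts at 30 °C (0.57, SE 0.16, adjusted p = 0.0341). Knockout replicate 2 lay close to the controls there, and at 22 °C the genotypes overlapped, with 67.8, 66.5, 64.3 and 72.3 in controls and 78.9, 75.6, 59.5 and 69.0 in knockouts.

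The other proteases did not pass the test in either knockout comparison. Ctsb, a cysteine protease, differed by -0.28 and -0.04 at 22 and 30 °C, and Tpp1, a tripeptidyl peptidase, by 0.09 and -0.02. Ctsd differed by 0.00 and 0.38, and Ctsz, a carboxypeptidase, by 0.14 and 0.56. Exons of Ctsa overlap Pltp and those of Ctsb overlap Fdft1 on the opposite strand in GENCODE M21, and whether the deposited values use strand is not given in the sources used here, so their levels may include reads of the partner gene. The same holds for Ppt1 with Cap1, Cln3 with Apobr, Lamp1 with Grtp1, Grn with Fam171a2 and Ctsz with Nelfcd.

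All 9 glycosidases and sulfatases were higher in knockouts at 30 °C by sign, with log2 fold changes of 0.21 to 0.95, and 5 passed the test. Man2b1, the lysosomal alpha-mannosidase, was at 16.3, 16.7 and 22.1 in controls and 44.7, 26.4 and 29.1 in knockouts (0.80, SE 0.17, adjusted p = 0.00874). At 22 °C the same gene was at 11.2, 11.7, 11.7 and 11.2 in controls and 12.1, 13.8, 11.6 and 11.5 in knockouts, a difference of 0.09 (SE 0.15) with overlapping groups. Beta-glucuronidase (Gusb) was at 12.9, 15.6 and 18.3 in controls and 46.1, 21.6 and 29.3 in knockouts at 30 °C (0.95, SE 0.22, adjusted p = 0.0129). Its 22 °C values were 14.3, 13.0, 11.2 and 12.8 in controls and 9.95, 14.1, 10.4 and 11.3 in knockouts, so the mean was slightly lower in knockouts there (-0.15, SE 0.19, adjusted p = 0.744).

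Hexa, the alpha subunit of the hexosaminidase that degrades GM2 ganglioside, was at 53.7, 47.7 and 59.3 in controls and 123, 64.2 and 86.1 in knockouts at 30 °C (0.71, SE 0.20, adjusted p = 0.0307). At 22 °C it was at 48.3, 44.7, 38.1 and 40 in controls and 43.6, 52.2, 36.3 and 44.2 in knockouts, which overlap. Gla, alpha-galactosidase A, was weakly expressed, at 1.72, 2.29 and 2.32 in controls and 8.35, 3.27 and 3.62 in knockouts at 30 °C (0.88, SE 0.25, adjusted p = 0.0319). The highest Gla value, 8.35, belonged to knockout replicate 1. At 22 °C Gla was at 1.63, 1.95, 1.83 and 0.951 in controls and 1.45, 1.69, 1.58 and 1.76 in knockouts. Naglu, an enzyme of heparan sulfate breakdown, was at 11.8, 12.5 and 12.2 in controls and 22.3, 16 and 20.9 in knockouts at 30 °C (0.64, SE 0.18, adjusted p = 0.0328). At 22 °C Naglu was lower in both genotypes, at 5.19, 5.97, 8.54 and 5.12 in controls and 5.68, 7.06, 6.95 and 4.72 in knockouts. The remaining 4, beta-galactosidase (Glb1, 0.33), acid alpha-glucosidase (Gaa, 0.32), neuraminidase (Neu1, 0.22) and sulfamidase (Sgsh, 0.21), did not pass the test at 30 °C.

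Npc1, the membrane protein that exports cholesterol from the lysosome, was called in both knockout comparisons. It was at 13.3, 16.3, 14.9 and 10 in controls and at 33.3, 33.7, 18.9 and 29.4 in knockouts at 22 °C, a log2 fold change of 1.01 (SE 0.21, adjusted p = 0.0275) and a ratio of means of 2.11. At 30 °C it was at 14.2, 11.8 and 13.4 in controls and 17.3, 31.6 and 23.7 in knockouts (0.80, SE 0.24, adjusted p = 0.0421). Every knockout lay above every control at both temperatures, and at 30 °C replicate 1, the highest knockout for most members, was the lowest for Npc1. The 2 estimates differed by 0.22 (SE 0.32, adjusted p = 0.811). When each animal was left out in turn, the call at 22 °C was lost in 5 of 8 fits (adjusted p = 0.00716 to 0.0974). The adjusted p was 0.0895 without both R controls. The call at 30 °C was lost in 5 of 6 single omissions (adjusted p = 0.0309 to 0.133) and held without knockout replicate 1. Npc1 exons overlap those of Rmc1 on the opposite strand. Npc2, the soluble partner that hands cholesterol to NPC1, went the other way by sign, at -0.37 (SE 0.15, adjusted p = 0.257) and -0.48 (SE 0.18, adjusted p = 0.0881).

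Lipa, the lysosomal acid lipase that hydrolyses cholesteryl esters and triglycerides, was at 22.3, 29.7 and 34.6 in controls and 75.4, 47.3 and 39.6 in knockouts at 30 °C (0.85, SE 0.23, adjusted p = 0.0287). At 22 °C it was at 51.4, 51.4, 43.8 and 34.5 in controls and 54.1, 60.2, 52.8 and 72.9 in knockouts, without overlap (0.40, SE 0.20, adjusted p = 0.356). Acid ceramidase (Asah1) rose at 30 °C by 0.57 (SE 0.17, adjusted p = 0.0372), with 10.4 to 12.8 in controls and 14.6 to 22.5 in knockouts. It differed by 0.01 at 22 °C. Psap (0.14 and 0.32) and the thioesterase Ppt1 (0.05 and -0.07) did not pass the test at 22 or 30 °C.

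Of the membrane and lumen proteins, the calcium channel Mcoln1 rose at 30 °C by 0.40 (SE 0.12, adjusted p = 0.0413), from 16.8 to 19.0 in controls to 21.9 to 27.9 in knockouts. At 22 °C its difference was 0.25 (adjusted p = 0.247). The abundant membrane glycoproteins Lamp1 (-0.01 and 0.12) and Lamp2 (-0.06 and 0.36), the glucocerebrosidase receptor Scarb2 (0.12 and -0.07) and Cln3 (-0.04 and -0.02) did not pass at 22 or 30 °C. Progranulin (Grn) differed by 0.32 and 0.73, with an adjusted p of 0.0706 at 30 °C.

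Among pump subunits, Atp6v0c, which forms the proton-carrying ring of the membrane sector, was at 37.4, 44.7 and 38.4 in controls and 66.5, 45.9 and 60.8 in knockouts at 30 °C (0.50, SE 0.14, adjusted p = 0.0312). Its values at 22 °C were 33.2, 30.2, 33.4 and 28.7 in controls and 43.0, 39.8, 33.4 and 37.2 in knockouts, with all knockouts above all controls before rounding (0.28, adjusted p = 0.28). The other 6 were higher in knockouts at 30 °C by sign without passing, from 0.20 for the accessory subunit Atp6ap1 to 0.51 for the catalytic subunit Atp6v1a. Between these were Atp6v1c1 (0.22), Atp6v1h (0.32), Atp6v0d1 (0.34) and Atp6v1b2 (0.47). At 22 °C their differences ran from -0.06 for Atp6v0d1 to 0.59 for Atp6v1h.

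Macrophage markers moved with these differences. The 15 markers summed to 86.4, 99.8 and 302 in controls and to 1299, 424 and 610 in knockouts at 30 °C. Most of each of these sums was Lyz2, at 52.6, 67.4 and 227 in controls and 1036, 325 and 468 in knockouts. At 30 °C 11 of the 15 markers rose (median 1.36), among them Trem2 (3.01, adjusted p = 0.00118), a receptor of lipid-associated macrophages, and Lyz2 (2.52, adjusted p = 0.00891). The library with the highest sum in each group at 30 °C was also the highest for most members. The same libraries had the highest fibroblast marker sums of their groups (182 and 641). At 22 °C the highest macrophage sums were in replicate 2 of each genotype. That replicate was highest for 8 of 40 members in controls (20%, against 15.9% of all genes) and 13 in knockouts (32.5%, against 21.8%). Replicate 1 was highest for 18 in controls (45%, against 25% of all genes) and 14 in knockouts (35%, against 27.7%). At 22 °C the sums were 44.9 to 63.1 in controls and 66.0 to 159 in knockouts, and 0 of 15 markers were called (median 0.41, 3 at an unadjusted p under 0.05). None of the 15 markers was at 0 in all libraries of a group. Fibroblast markers also moved, with 5 of 5 higher in knockouts at 30 °C (sums of 154 to 182 in controls and 307 to 641 in knockouts), whereas 0 of 5 were called at 22 °C (0 at an unadjusted p under 0.05). Of 12 brown adipocyte markers, 5 fell in knockouts at 30 °C (Ucp1, Adipoq, Fabp4, Cox7a1 and Cidea), and at 22 °C Adipoq fell and Ppargc1a rose. No marker of endothelial cells, skeletal muscle, lymphocytes or neutrophils was called in either knockout comparison (of 6, 10, 4 and 2 tested), and 0 had an unadjusted p under 0.05. The part of other cell types in the members' differences was not tested. Among knockouts at 30 °C the lowest Npc1 value, 17.3, came from the library with the highest macrophage sum. Among knockouts at 22 °C, Npc1 was at 33.3, 33.7, 18.9 and 29.4, with macrophage sums of 72.2, 159, 66.0 and 101 in the same libraries. The value of 33.3, close to the highest, thus came with a sum close to the lowest.

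**Figure D4:**
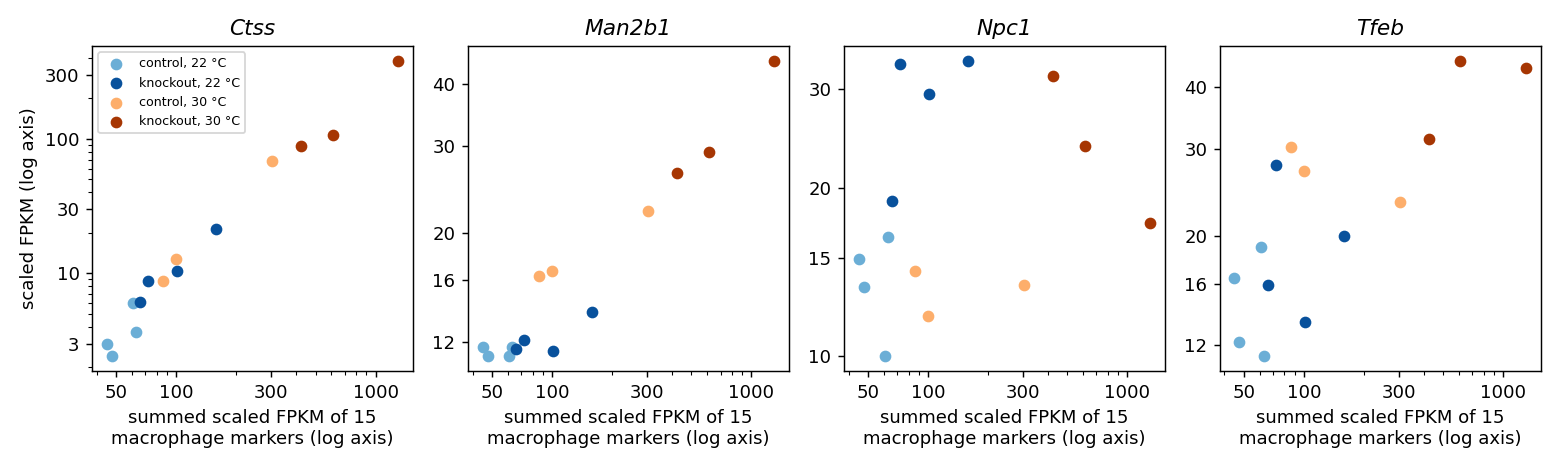
Scaled FPKM of Ctss, Man2b1, Npc1 and Tfeb in each library against the summed scaled FPKM of 15 macrophage markers, both on log axes, coloured by group. Ctss is highest (381) where the marker sum is highest (1299). Npc1 is highest (33.7) in the knockout at 22 °C with the highest sum of its group (159), and nearly as high (33.3) in the knockout with a sum of 72.2. Lyz2 is the largest part of the sum in every library.

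Housing temperature was compared within each genotype as 22 °C over 30 °C. The same groups differ in sex by Xist and Ddx3y, so no difference below can be assigned to temperature alone. In controls 6 members were higher at 22 °C (15%, against 18.2% of all genes) and 9 were lower (22.5%, against 20.6%), shares near the background. With the FPKM as deposited the split was 3 higher and 14 lower. Leaving out control replicate 4 at 22 °C gave 8 higher and 7 lower, and leaving out both R controls gave 7 and 6. Leaving out any other control of either temperature gave 3 to 4 higher and 6 to 9 lower, so neither direction holds as the larger throughout. In knockouts 3 were higher (7.5%, against 21.8%) and 20 were lower (50%, against 29.4%). The median log2 fold change over members was -0.19 in controls and -0.35 in knockouts, against -0.05 and -0.07 over all genes. Of the 15 members called in controls and 23 in knockouts, 11 were called in both.

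Direction varied with role. All 9 glycosidases and sulfatases were lower at 22 °C by sign in both genotypes, and 5 passed in controls (Naglu, Man2b1, Gaa, Neu1 and Sgsh) and 9 in knockouts, with median log2 fold changes of -0.39 and -0.99. Of the 5, Naglu fell most in controls, by 0.89 on the log2 scale (SE 0.17, adjusted p = 0.00203), and its 4 values at 22 °C (5.12 to 8.54) lay below the 3 at 30 °C (11.8 to 12.5). Among proteases, Ctss fell by 2.19 in controls (adjusted p = 0.0169) and by 3.73 in knockouts (adjusted p = 0.000516), and Ctsh by 1.73 in knockouts (adjusted p = 0.00033). Macrophage markers also differed with temperature, with 5 of 15 called lower and 1 higher at 22 °C in controls, and 13 lower and 1 higher in knockouts. In knockouts 5 of 5 fibroblast markers (median -1.21) and 4 of 4 lymphocyte markers (median -1.44) were lower at 22 °C, and 8 of 12 brown adipocyte markers were higher. In controls 6 of 12 brown adipocyte markers were higher and 1 lower, 1 of 5 fibroblast markers was lower and 2 of 4 lymphocyte markers were lower. Their part in the members' temperature differences was not tested.

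Other members were higher at 22 °C. Scarb2 was at 70.5, 67.4, 44.9 and 30.9 in controls at 22 °C and at 26.7, 25.1 and 27.5 at 30 °C (0.92, SE 0.22, adjusted p = 0.00702). In knockouts it was at 61.4, 53.7, 49.6 and 57.4 at 22 °C and 27.2, 27.4 and 21.3 at 30 °C (1.11, SE 0.22, adjusted p = 0.00138). The temperatures did not overlap in either genotype, and the lowest controls at 22 °C were replicates 3 and 4, the animals with R identifiers. Lamp2 was at 56.7, 48.4, 32.8 and 33.1 in controls at 22 °C and 24.2, 23.4 and 28 at 30 °C (0.70, SE 0.18, adjusted p = 0.0102). In knockouts Lamp2 was at 40.3, 37.2, 35.6 and 47.3 at 22 °C and 38.8, 28.9 and 31.0 at 30 °C, which overlap (0.28, SE 0.18, adjusted p = 0.216).

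Pump subunits were divided. Atp6v1h, a regulatory subunit of the cytosolic sector, was at 81.0, 48.5, 33.2 and 49.6 in knockouts at 22 °C and 27.2, 27.4 and 30.4 at 30 °C (0.81, SE 0.24, adjusted p = 0.0138). In controls it was at 44.5, 35.7, 32.0 and 23.5 at 22 °C and 20.8, 22.7 and 24.0 at 30 °C, which overlap (0.54, SE 0.24, adjusted p = 0.0937). Atp6v1c1 was higher at 22 °C in both genotypes (0.60, adjusted p = 0.00268, and 0.40, adjusted p = 0.0152), and Atp6v1a (0.52, adjusted p = 0.0474) and Atp6v0d1 (0.34, adjusted p = 0.0453) in controls. By contrast, Atp6v0c fell by 0.57 (adjusted p = 0.00314) and Atp6ap1 by 0.40 (adjusted p = 0.0201) in knockouts.

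Of the 3 transcription factors, Tfeb passed the test between temperatures. Its values at 22 °C lay below all values at 30 °C in both genotypes, with log2 fold changes of -0.85 (SE 0.23, adjusted p = 0.0124) in controls and -1.05 (SE 0.23, adjusted p = 0.00233) in knockouts. Tfe3 (-0.24 and -0.15) and Mitf (0.15 and -0.18) did not pass in controls or knockouts. Lipa was higher at 22 °C in controls (0.64, adjusted p = 0.0343) and Psap lower in both genotypes (-0.56, adjusted p = 0.028, and -0.74, adjusted p = 0.00464).

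**Figure D5:**
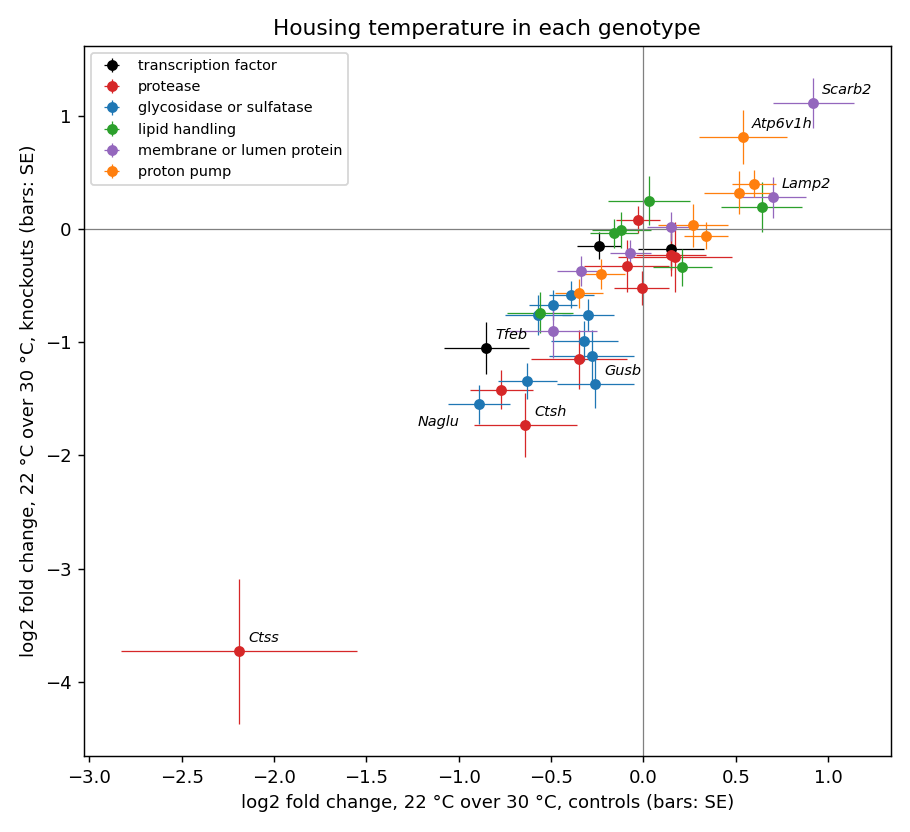
Log2 fold change of 22 °C over 30 °C for each of the 40 genes in controls (x axis) and knockouts (y axis), with SE bars, coloured by role. Glycosidases and sulfatases lie below 0 on both axes, Scarb2 (0.92 and 1.11) lies above 0 on both, and Ctss is at -2.19 and -3.73.

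The difference between the 2 knockout effects was tested as an interaction (effect at 22 °C minus effect at 30 °C). It was called for 0 of 40 members, as for 0% of all genes (limma). At an unadjusted p under 0.05 there were 11 members (27.5%, against 13% of all genes), and 33 of 40 values were negative, with a median of -0.24 against -0.05 over all genes. That median was -0.13 without knockout replicate 1 at 30 °C and -0.42 without control replicate 4 at 22 °C. It was -0.37 without knockout replicate 2 at 30 °C and -0.45 without both R controls. The values ran from -1.54 for Ctss (SE 0.90, adjusted p = 0.512) to 0.27 for Atp6v1h (SE 0.34, adjusted p = 0.781). That more members were called at 30 °C than at 22 °C is therefore not shown to be a difference between temperatures. Sex, by Xist and Ddx3y, also differed between the temperatures. Gusb was at -1.10 (SE 0.29, adjusted p = 0.194), with a small fall by sign at 22 °C and a rise at 30 °C. With sample weights Gusb was called, and without knockout replicate 2 at 30 °C Gusb and Ctsl were.

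Other genes of the pathway were taken from fixed lists. Of 40 further lysosomal enzymes and membrane proteins, 6 rose and 1 fell in knockouts at 30 °C, with a median of 0.09. Over all genes 8.82% rose and 5.28% fell, with a median of 0.06, so this list's median was near the background. Those that rose included the asparaginyl endopeptidase Lgmn (1.36, adjusted p = 0.00804), the collagen-degrading cathepsin K (Ctsk, 1.20, adjusted p = 0.0141) and the endolysosomal cation channel Tpcn2 (1.20, adjusted p = 0.00959). Ctsf fell, by 0.77 (adjusted p = 0.000905). Of 14 further pump subunits tested, 3 rose and 1 fell: Atp6v0d2 (2.92, adjusted p = 0.00295), Tcirg1 (1.25, adjusted p = 0.0399) and Atp6v0a1 (0.98, adjusted p = 0.00777) were higher and Atp6v1c2 (-1.29, adjusted p = 0.00448) lower. Atp6v0d2 and Tcirg1 are isoforms known from osteoclasts and macrophages. At 22 °C 0 genes of either list were called, with 10 of 40 and 0 of 14 at an unadjusted p under 0.05 (15.8% of all genes).

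Upstream of TFEB, 2 of 21 nutrient-sensing genes rose in knockouts at 30 °C, a share near the 8.82% of all genes. They were Rheb, the small GTPase that activates mTORC1, which rose by 0.50 (adjusted p = 0.00685), and Ppp3ca, a catalytic subunit of the phosphatase calcineurin, which also rose by 0.50 (adjusted p = 0.0293). At 22 °C 0 of 21 were called (5 at an unadjusted p under 0.05). The list of 26 autophagy genes also counts Gpnmb, known from lipid-laden macrophages. Of these 26, 2 rose (Sqstm1 and Gpnmb) and 2 fell at 30 °C (median -0.03), shares near the 8.82% and 5.28% of all genes. At 22 °C 1 rose (0.91% of all genes called higher), with 8 at an unadjusted p under 0.05 (15.8% of all genes). Sqstm1, which encodes the cargo receptor p62, was called at both temperatures. It was at 85.7, 95.6, 111 and 78.9 in controls and 358, 246, 142 and 179 in knockouts at 22 °C (1.23, SE 0.24, adjusted p = 0.0218). At 30 °C it was at 118, 109 and 105 in controls and 256, 204 and 336 in knockouts (1.23, SE 0.28, adjusted p = 0.0115). The groups did not overlap at either temperature. Gpnmb, a glycoprotein of lipid-laden macrophages, rose at 30 °C by 3.86 (adjusted p = 0.00463), from 1.92, 2.77 and 15.9 in controls to 280, 42.5 and 45.2 in knockouts. Map1lc3b fell by 0.41 (adjusted p = 0.0111) and Atg16l1 by 0.30 (adjusted p = 0.0348) at 30 °C.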

How the data were processed

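The authors deposited FPKM per gene and animal, with no counts. The submitters' processing notes name the build mm9. The aligner, counting tool, annotation and use of strand are not given in the sources used here. GENCODE M21 gave symbols for 34490 of 35275 genes and the exon overlaps. Depth was recovered from the steps between low values: 90.7 to 92.5% of those tested lay within 0.05 of a whole read.

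Each library was divided by its median ratio to the geometric mean of 10049 nuclear genes with FPKM of at least 1 throughout (factors 0.822 to 0.947 in controls and 1.05 to 1.20 in knockouts). Genes with FPKM of at least 1 in at least 3 libraries (13079) were fitted as log2(scaled FPKM + 1), with a mean per group over all 14 libraries, by limma 3.58.1 in R 4.3.3 (eBayes with trend, Benjamini-Hochberg adjustment, threshold 0.05). The fit was tested on simulated data. No block was fitted, since each animal has its own identifier and the labels pair none. Medians over members are descriptions. Figures were drawn with matplotlib 3.10.9.

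The members and all lists were chosen with earlier results of these data known. All 40 members are named. Values per animal are given for the transcription factors, the 12 smallest adjusted p-values at 30 °C, each gene called at 22 °C, and the 2 largest temperature differences in each direction. Up to 4 genes with the largest changes were named from each further list (1 such gene is not reported here), and Ctsf, as well as the Lamp1 promoter and the values of Sqstm1 and Gpnmb, were added after their values were seen. Alternatives covered pseudocount, filter, scaling, weights, robust fit, groups fitted and left-out animals.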

Additional observations from a re-analysis of the deposited data

Results flagged for a closer look

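Each member was examined in each 22 °C group, of 4 animals, for a sample standing apart (80 groups of values). In 1 of them (1.25%, where chance gives about 1 in 20) a value was separated from the rest. Neu1, the lysosomal neuraminidase, was at 12.7 in knockout replicate 1 at 22 °C, with the other 3 knockouts at 9.53 to 9.82. The gap was set off because it exceeded Dixon's critical value for 4 samples. Neu1 was not called in that knockout comparison (0.03, SE 0.12, adjusted p = 0.931). The groups at 30 °C, of 3 animals, were not examined in this way.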

How the results depend on the processing

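The count of members called at 22 °C (1) was 0 without the expression filter, 0 in a fit to the compared groups alone, 0 without both controls with R identifiers, 2 when libraries were scaled to equal nuclear totals, and 12 with the FPKM as deposited, and 0 to 1 when each animal was left out. The count at 30 °C (15) was 7 without the filter, 2 in a fit to the compared groups alone and 33 with the FPKM as deposited, and 1 to 16 when each animal was left out. With sample weights it was 22, of which 21 higher, and with equal nuclear totals also 22. Quantile normalization gave 13, of which 10 were among the 15. In that setting Asah1, Gla, Mcoln1, Naglu and Npc1 lost the call, and Ctsd, Grn and Psap gained it. Lower counts without the filter come with 24190 genes tested. The interaction count (0) was 1 with sample weights and 0 to 2 when each animal was left out. The FPKM as deposited moved the members' median to 0.37 at 22 °C and 0.70 at 30 °C, and the median of all genes to 0.24 and 0.31. Without both R controls the members' median at 22 °C was -0.04, with 17 of 40 values positive, and that of the interaction -0.45. Mitf at 22 °C, which did not pass the test, turned from 0.18 to -0.05 both with sample weights and without the R controls. The cause was not tested. The counts by temperature, 10 to 22 in controls and 20 to 25 in knockouts, stayed within 1.5 times the reported ones in total, but the 6 called higher in controls became 3 to 8 when each animal was left out. No paired analysis was possible because the labels tie no animals of different groups together: replicate numbers here follow accession order and only name animals. All members had group means of 1.59 or more, at 15.9 to 21.3 fragments per kilobase for each FPKM. Leaving out 1 animal brought the count at 30 °C to 9 or fewer in 5 of 6 cases.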
